A study of Drosophila melanogaster with 18 samples.

Results

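This account follows the genes of glutathione synthesis, the thioredoxin system and the Cnc-Keap1 pathway through the unfolded protein response of Drosophila Schneider 2 (S2) cells, an embryonic cell line with traits of blood cells. The genes were chosen by their CG gene numbers (the numbering of annotated Drosophila genes). They were Gclc (2259), Gclm (4919), Trxr1 (2151), Trx-2 (31884), Jafrac1 (1633), Jafrac2 (1274), Cat (6871), cnc (17894), Keap1 (3962) and MtnA (9470). Of these 10 genes, 8 had a row among the 7257 probes of the table, with 1 probe each, and Trx-2 (31884) and MtnA (9470) had none under these numbers. The current annotation calls Jafrac1 Prx2 and Jafrac2 Prx4.

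Total RNA was measured on 18 spotted arrays in 6 groups of 3. Control cells received no double-stranded RNA, and the other cells received double-stranded RNA against XBP-1 or IRE1 in 3 rounds; each of these arms was left without DTT or given 2 mM DTT for 7.4 hours. DTT is a reducing agent that disrupts disulphide bonds, IRE1 is a sensor of unfolded protein in the endoplasmic reticulum (ER), and XBP-1 is the transcription factor whose mRNA it splices. Control cells had no unrelated double-stranded RNA, so an RNAi arm differs from them also in having received any such RNA. Each array carried Cy5-labelled sample against one Cy3-labelled reference, which mixed embryos with S2 cells, some of them given DTT. Replicates carry the letters A, B and C, and nothing in the labels says that these were separate cultures, so the p-values measure a spread that may be technical.

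Glutathione is made from glutamate, cysteine and glycine, and its first and limiting step is glutamate-cysteine ligase, a pair of a catalytic subunit (Gclc) and a modifier subunit (Gclm). Flies lack a glutathione reductase, and the thioredoxin system, with thioredoxin reductase (Trxr1) and the thioredoxins, does its work. Peroxiredoxins and catalase remove hydrogen peroxide. The transcription factor encoded by cnc, the fly counterpart of mammalian Nrf2, is held down by Keap1 until oxidants or electrophiles modify Keap1, and it then drives detoxification genes, among them those of glutathione synthesis. Expression of its long isoform, CncC, cannot be told apart here from that of the other isoforms, since the table gives 1 value per row.

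The deposited values were log ratios, read here as log2 of sample over reference; base and numerator are not given in the sources used here. Sizes on the log2 scale and the words higher and lower rest on that reading. A spot that failed the authors' filters has no value, and an array held 3755 to 6696 values. Array medians ran from -0.81 to 0.24, so a change with DTT is read beside the median change of all probes tested, which was 0.15 in control cells, -0.08 under XBP-1 RNAi and -0.24 on the arrays labelled IRE1 RNAi. Changes are differences of group means with limma's standard errors. Their p-values from limma were adjusted by the Benjamini-Hochberg method over all probes of a comparison, with a threshold of 0.05, and intervals are 95% intervals of the change.

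The labels were checked first. The Ire1 probe read 0.13 to 2.55 on the 6 arrays labelled IRE1 RNAi and -1.08 to 0.41 on the other 12, where a fall of the transcript would give lower values. The reason for the higher reading was not tested, so those arrays are named here by their label only. The 2 Xbp1 probes differed under XBP-1 RNAi without DTT by -0.38 ± 0.36 and -0.41 ± 0.36 from control (adjusted p 0.959 for both, limma), so the knockdown was not shown by them. Hsc70-3, the ER chaperone BiP, rose with DTT by 2.92 ± 0.43 in control cells, 1.24 ± 0.42 under XBP-1 RNAi and 1.41 ± 0.42 on the arrays labelled IRE1 RNAi (adjusted p 1.36e-05, 0.0413 and 0.0234, limma). Its smaller rise in the RNAi arms did not pass as a difference from control (-1.68 ± 0.60, adjusted p 0.284, and -1.52 ± 0.60, adjusted p 0.43). Of 6 markers of S2 cells, 2 (Pxn and crq) lay above the array median, and Hml and eater had values on 2 arrays each. All 7 markers of muscle, nerve and gut lay below it, from -4.54 for Mlc2 to -0.19 for nSyb; all are ratios to a reference that itself holds S2 cells and embryos. With DTT, 1 of the 4 S2 markers tested fell in each arm, and so did 1 of the other markers. The first was crq, which fell by 1.60 in control cells (adjusted p 0.00176, limma), or Pxn on the arrays labelled IRE1 RNAi; the second was Act57B, which fell by 1.90 in control cells (adjusted p 0.00126, limma). The part of these markers in the results was not tested.

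Both regulators stood higher with DTT in every arm. Transcripts of cnc rose 2.89-fold to 4.04-fold. In control cells cnc stood at -1.39, -2.61 and -1.94 without DTT (A, B and C) and at 0.11, -0.23 and 0.22 with DTT. The arrays under XBP-1 RNAi gave -1.96, -2.24 and -2.28 without DTT and -0.71, -0.15 and -0.15 with it. The arrays labelled IRE1 RNAi gave -1.90, -1.60 and -2.18 without DTT and -0.44, 0.27 and -0.92 with it. The 9 arrays without DTT (-2.61 to -1.39) and the 9 with it (-0.92 to 0.27) did not overlap. The share of all probes with such separate groups, or with the same direction in every pair, was not counted, here and below. The change of cnc was 2.01 ± 0.36 in control cells (4.04-fold, adjusted p 0.000224, limma). It was 1.82 ± 0.36 under XBP-1 RNAi (adjusted p 0.000543) and 1.53 ± 0.36 on the arrays labelled IRE1 RNAi (adjusted p 0.00386, both limma). Among all probes tested, cnc ranked 114 of 5935, 104 of 5649 and 120 of 5833 from the highest rise. A further row, numbered 4578, carries another CG number of cnc in the annotation; it is not among the chosen numbers and may read the same transcripts. It rose by 2.32 ± 0.38, 1.93 ± 0.42 and 1.78 ± 0.38 in the 3 arms in the same order (adjusted p 8.61e-05, 0.0016 and 0.00174, limma). Whether more cells carried the transcript or each cell carried more cannot be told apart in these bulk samples, here and below.

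Keap1, the inhibitor of Cnc, showed the widest gap of the 8 genes between arrays with and without DTT, but on few values. Without DTT it had 1 value per group: -2.08 in control cells (B), -1.05 under XBP-1 RNAi (A) and -2.22 on the arrays labelled IRE1 RNAi (C). The other 6 spots had been removed, and the table does not say by which of the authors' filters. With DTT it had all 9 values: 2.25, 1.22 and 1.19 in control cells, 1.92, 2.06 and 1.47 under XBP-1 RNAi, and 1.47, 1.65 and 0.87 on the arrays labelled IRE1 RNAi. Every value with DTT was above every value without. Of the 7257 probes, 2 (0.0276%), Keap1 included, had this pattern of at most 1 value in each group without DTT and 3 in each group with it, and 1 (0.0138%) had the reverse pattern. With 1 value per group without DTT, Keap1 fell short of the 2 values per group that a comparison required here. Its differences are therefore given as a description. The mean with DTT lay above the lone value without it by 3.63 in control cells, by 2.87 under XBP-1 RNAi and by 3.55 on the arrays labelled IRE1 RNAi. The pairs of the same letter gave 3.30, 2.97 and 3.09.

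**Figure D1:**
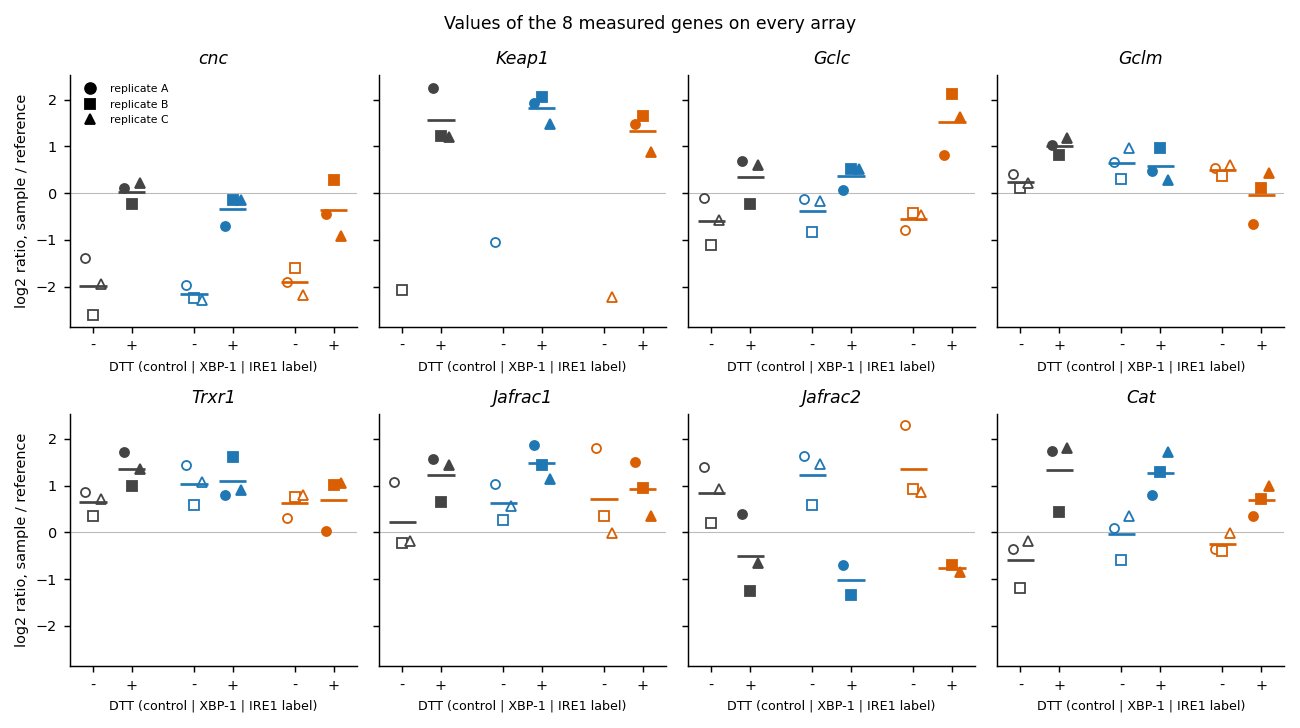
Log2 ratio of sample to reference (vertical axis) of the 8 measured genes on every array, with open symbols without DTT and filled symbols with DTT, in grey for control cells, blue for XBP-1 RNAi and orange for the arrays labelled IRE1 RNAi; symbol shape gives the replicate letter, bars give means of groups with at least 2 values, and missing symbols are removed spots. The 9 values of cnc with DTT (-0.92 to 0.27) lie above the 9 without (-2.61 to -1.39), and Keap1 has 1 value per group without DTT; heights of different genes are not comparable.

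The subunits of glutamate-cysteine ligase gave different calls. Gclc, the catalytic subunit, rose 4.21-fold on the arrays labelled IRE1 RNAi and did not pass in the other arms with the values as deposited. There it stood at -0.78, -0.42 and -0.46 without DTT and at 0.81, 2.12 and 1.63 with it, 2 groups that do not overlap, a change of 2.07 ± 0.37 (adjusted p 0.000332, limma). In control cells Gclc stood at -0.10, -1.10 and -0.57 without DTT and at 0.68, -0.23 and 0.59 with it. Those groups overlap, and the change of 0.94 ± 0.37 did not pass (interval 0.17 to 1.70, adjusted p 0.115, limma). Within each letter the control change was 0.78, 0.87 and 1.16, and with the letter as a replicate block it passed (adjusted p 0.0226, limma). With the block alone, here and below, limma used 1 common variance for all probes. Those p-values therefore do not measure the spread of each gene's own pairs. Under XBP-1 RNAi Gclc stood at -0.13, -0.83 and -0.17 without DTT and at 0.07, 0.52 and 0.52 with it, which do not overlap; the change was 0.75 ± 0.37 (interval -0.01 to 1.51, adjusted p 0.192, limma). Gclc was thus higher with DTT in all 9 pairs of the same letter, by 0.20 to 2.54. The XBP-1 RNAi change passed once each array was centred on its median (0.93, adjusted p 0.0168, limma), and so did the control change (0.81, adjusted p 0.0397).

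Gclm, the modifier subunit, did not pass in any arm. In control cells it stood at 0.40, 0.10 and 0.21 without DTT and at 1.02, 0.82 and 1.17 with it, groups that do not overlap, with a change of 0.77 ± 0.34 (interval 0.08 to 1.46, adjusted p 0.167, limma). Under XBP-1 RNAi it stood at 0.67, 0.31 and 0.97 without DTT and at 0.48, 0.97 and 0.29 with it, a change of -0.07 ± 0.34 (interval -0.76 to 0.62, adjusted p 0.924). On the arrays labelled IRE1 RNAi it stood at 0.53, 0.36 and 0.59 without DTT and at -0.67, 0.10 and 0.43 with it, a change of -0.54 ± 0.34 (interval -1.23 to 0.15, adjusted p 0.35). The last 2 pairs of groups overlap. With array centring and the replicate block together, the control change of Gclm was 0.64 ± 0.20 and passed (adjusted p 0.0161, limma). In pairs of the same letter Gclm was higher with DTT in 3 of 3 control pairs, 1 of 3 XBP-1 RNAi pairs and 0 of 3 pairs labelled IRE1 RNAi. After centring these became 3, 2 and 1 of 3, so the direction outside control cells depends on the scaling.

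A shift of all log ratios of an array cancels in the difference between 2 genes on it, though other scalings such as quantile normalization need not. Only changes of that difference between groups can be read, since the probes differ. This measure was chosen after the values were seen, and no test was made of it. Gclc minus Gclm averaged -0.83 ± 0.35 (SD, n = 3) in control cells without DTT and -0.66 ± 0.36 with it. Under XBP-1 RNAi it averaged -1.03 ± 0.20 without DTT and -0.21 ± 0.38 with it, and on the arrays labelled IRE1 RNAi -1.05 ± 0.27 without. On the 3 arrays labelled IRE1 RNAi with DTT it averaged 1.57 ± 0.42. Those 3 arrays, at 1.48, 2.02 and 1.20, stood above all the others, which ranged from -1.31 to 0.23.

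**Figure D2:**
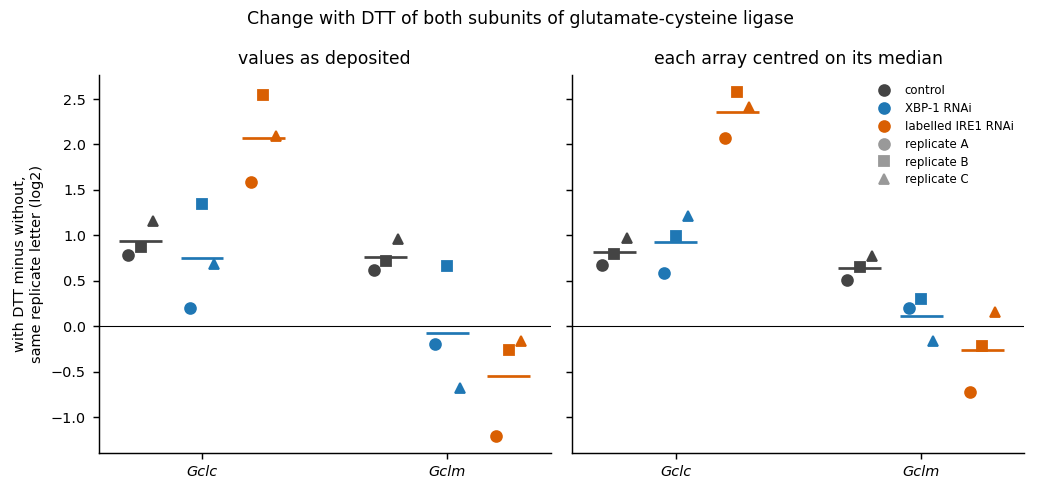
Change with DTT (log2, array with DTT minus array without, same replicate letter) of Gclc and Gclm in the 3 arms, from the values as deposited (left) and after centring of each array (right); symbols are replicate letters and bars are means. Gclc lies above 0 in all 9 pairs, with the arrays labelled IRE1 RNAi highest (1.59 to 2.54), while Gclm is above 0 in every control pair (0.62 to 0.96) and changes side elsewhere with the scaling.

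In the thioredoxin system, Trxr1, the reductase that regenerates thioredoxin from NADPH, did not pass in any arm. In control cells it stood at 0.86, 0.36 and 0.72 without DTT and at 1.72, 0.99 and 1.35 with it, groups that do not overlap. The control change was 0.71 ± 0.36 (interval -0.03 to 1.44, adjusted p 0.259, limma), and with centring and the replicate block together it was 0.58 ± 0.21 and passed (adjusted p 0.0391). Under XBP-1 RNAi the values were 1.44, 0.59 and 1.07 without DTT and 0.80, 1.61 and 0.90 with it, a change of 0.07 ± 0.36 (interval -0.66 to 0.80, adjusted p 0.929). On the arrays labelled IRE1 RNAi they were 0.31, 0.75 and 0.80 without DTT and 0.04, 1.01 and 1.05 with it, a change of 0.08 ± 0.36 (interval -0.66 to 0.82, adjusted p 0.951). Both of these pairs of groups overlap. A row numbered 3864 carries an older CG number of Trx-2, the cytosolic thioredoxin, and is likewise not among the chosen numbers. It differed by -0.53 ± 0.50 in control cells, -0.74 ± 0.50 under XBP-1 RNAi and -0.90 ± 0.50 on the arrays labelled IRE1 RNAi (adjusted p 0.607, 0.371 and 0.275, limma). The row was lower with DTT in all 9 pairs of the same letter, by 0.13 to 1.64 in size, while the groups overlapped in every arm. With the replicate block the last of these changes passed (adjusted p 0.0271, limma). No other setting gave this row a call, centring and the block together included.

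Of the peroxiredoxins, Jafrac2, which resides in the ER, fell in all 3 arms. The cytosolic Jafrac1 did not pass in any with the values as deposited and no replicate block. In control cells Jafrac2 stood at 1.40, 0.21 and 0.92 without DTT and at 0.40, -1.26 and -0.65 with it. With XBP-1 RNAi it stood at 1.64, 0.58 and 1.47 without DTT and at -0.69 (A) and -1.34 (B) with it, the spot of C having been removed. The arrays labelled IRE1 RNAi stood at 2.29, 0.92 and 0.87 without DTT and at -0.70 (B) and -0.84 (C) with it, the spot of A having been removed. The groups overlap in control cells and not in the other arms. The change was -1.35 ± 0.44 in control cells, a fall of 2.54-fold (adjusted p 0.0455, limma). It was -2.25 ± 0.49 under XBP-1 RNAi (adjusted p 0.00164) and -2.13 ± 0.49 on the arrays labelled IRE1 RNAi (adjusted p 0.00353, both limma). The 3 control pairs of the same letter had changes of -1.0, -1.47 and -1.57, all lower with DTT, and with the replicate block the control change passed with an adjusted p of 0.000374 (limma). Without the block the control call depended on single arrays. It was lost without A or C of the control arrays without DTT (-1.07, adjusted p 0.108, and -1.31, adjusted p 0.104) and without B or C of those with it (-0.97, adjusted p 0.242, and -1.27, adjusted p 0.134).

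Jafrac1 stood at 1.07, -0.22 and -0.19 in control cells without DTT and at 1.57, 0.66 and 1.44 with it, groups that overlap through array A. The change was 1.00 ± 0.44 (adjusted p 0.162, limma), and it passed with the replicate block (adjusted p 0.0127) and without control array A without DTT (1.43, adjusted p 0.0193). Under XBP-1 RNAi it stood at 1.03, 0.27 and 0.57 without DTT and at 1.87, 1.45 and 1.15 with it, which do not overlap. That change was 0.87 ± 0.43 (adjusted p 0.195), and it passed with the replicate block (adjusted p 0.0302) and after centring (1.05, adjusted p 0.0309, limma). On the arrays labelled IRE1 RNAi the values were 1.81, 0.35 and -0.02 without DTT and 1.50, 0.95 and 0.34 with it, an overlapping pair with a change of 0.22 ± 0.44 (interval -0.68 to 1.11, adjusted p 0.86).

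Catalase, the peroxisomal enzyme that splits hydrogen peroxide, rose in control cells and under XBP-1 RNAi. Cat stood at -0.36, -1.19 and -0.19 in control cells without DTT and at 1.73, 0.43 and 1.81 with it, a change of 1.90 ± 0.39 (3.74-fold, adjusted p 0.000998, limma). Under XBP-1 RNAi it stood at 0.10, -0.59 and 0.36 without DTT and at 0.79, 1.30 and 1.71 with it, a change of 1.31 ± 0.39 (adjusted p 0.0181). The arrays labelled IRE1 RNAi gave Cat values of -0.35, -0.39 and -0.01 without DTT and 0.36, 0.72 and 1.00 with it, a change of 0.94 ± 0.39 (interval 0.15 to 1.74, adjusted p 0.112, both limma). In none of the 3 arms do the groups overlap. The last change passed with the replicate block (adjusted p 0.0187, limma) and after centring (1.22, adjusted p 0.0201). The call under XBP-1 RNAi was lost without array B without DTT (1.04, adjusted p 0.0979) and without array C with DTT (1.09, adjusted p 0.112).

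**Figure D3:**
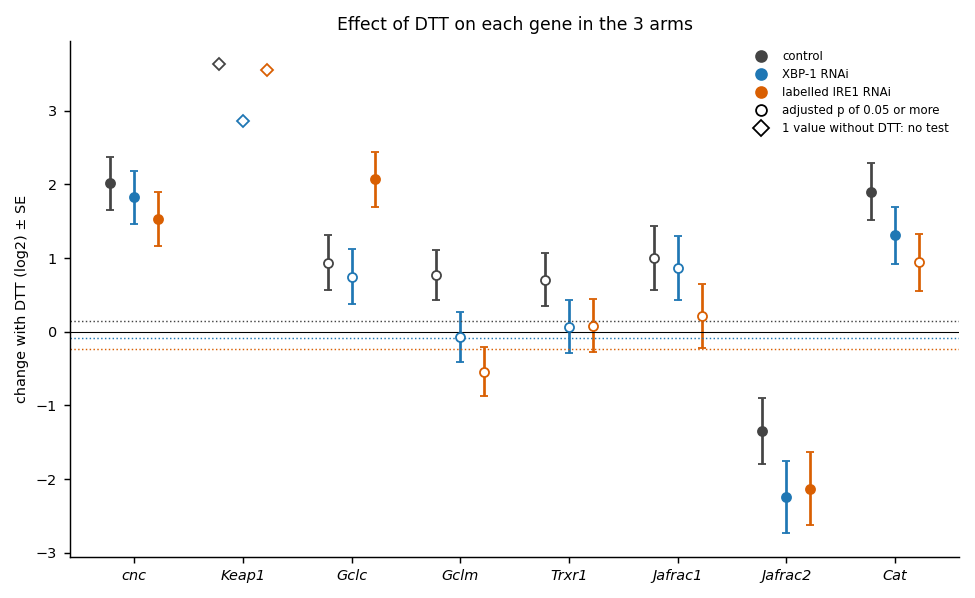
Change with DTT (log2, vertical axis) of each gene with its standard error from limma in control cells (grey), under XBP-1 RNAi (blue) and on the arrays labelled IRE1 RNAi (orange); filled circles passed the threshold, open circles did not, open diamonds are the Keap1 differences, which rest on 1 value without DTT and were not tested, and dotted lines are the medians of all probes (0.15, -0.08 and -0.24). cnc is filled in all 3 arms, Gclc in the arm labelled IRE1 RNAi and Cat in the other 2, and Jafrac2 lies below 0 throughout. The calls are those of the fit without the replicate block.

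Counted together, in the fit of the deposited values without the replicate block, 2 of the 7 genes tested rose and 1 fell in each arm. The genes were chosen with earlier results of these data known, so the shares of all probes are given as a description. In control cells cnc and Cat rose, where 7.25% of all probes rose, and Jafrac2 fell, where 4.45% fell. Under XBP-1 RNAi the same 3 genes passed in the same directions, where 4.53% of probes rose and 11.8% fell. On the arrays labelled IRE1 RNAi, cnc and Gclc rose and Jafrac2 fell, where 3.48% rose and 10.5% fell. The median change of the 7 was 0.94, 0.75 and 0.22 in the 3 arms, beside 0.15, -0.08 and -0.24 over all probes. With the replicate letter as a block, 5, 4 and 4 of the 7 passed in either direction, where 19.6%, 26.6% and 22.4% of all probes did. With centring and the replicate block together, 7, 5 and 4 passed, where 33.9%, 45.1% and 32.1% of all probes did. In control cells all 7 then passed, 6 as rises and Jafrac2 as a fall.

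Whether RNAi altered the response to DTT was tested as the difference between the effects of DTT in 2 arms. None of the 7 genes passed in any of the 3 differences, where 0.802% of all probes passed for XBP-1 RNAi against control, 0.0894% for the IRE1 label against control and 0% for the IRE1 label against XBP-1 RNAi. At an unadjusted p under 0.05, 0, 2 and 1 of the 7 genes passed in these differences, where 8.01%, 9.28% and 1.35% of all probes did. For cnc the differences were -0.19 ± 0.51, -0.48 ± 0.51 and -0.29 ± 0.51, with intervals of -1.23 to 0.85, -1.52 to 0.56 and -1.33 to 0.74. These intervals hold a loss of up to 1.52 on the log2 scale as well as no change, so they do not show that the effect on cnc was equal in the arms. For Cat the IRE1 label against control gave -0.96 ± 0.55 (interval -2.08 to 0.16, adjusted p 0.573, limma), and for Jafrac2 XBP-1 RNAi against control gave -0.90 ± 0.66 (interval -2.25 to 0.45, adjusted p 0.829).

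For Gclc, as deposited, the effect of DTT was larger by 1.14 ± 0.53 than in control cells (interval 0.06 to 2.21, adjusted p 0.517, limma) and by 1.33 ± 0.52 than under XBP-1 RNAi (interval 0.25 to 2.40, adjusted p 0.999). With centring and the replicate block together the same differences were 1.54 ± 0.29 (adjusted p 0.00477, where 4.86% of all probes passed) and 1.42 ± 0.29 (adjusted p 0.0243, where 0.868% passed). Centring on the probes measured on all arrays, without the block, gave 1.66 for the first (adjusted p 0.0358, limma). With the replicate block alone neither difference passed (adjusted p 0.167 and 0.48, limma), nor with centring on the array median or quantile normalization alone. For Gclm the effect was smaller by 1.31 on the log2 scale than in control cells, at -1.31 ± 0.47 (interval -2.27 to -0.34, adjusted p 0.353, limma), and with centring and the block it was -0.90 ± 0.28 (adjusted p 0.0696). Replicate A labelled IRE1 RNAi with DTT, the array with the fewest values (3755), gave the lowest Gclm and the lowest Gclc of its group.

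Without DTT, RNAi left no gene past the threshold. None of the 7 passed for XBP-1 RNAi or for the IRE1 label against control, where 0% of probes passed in each, and 0 of the 7 had an unadjusted p under 0.05 in either, where 1.34% and 0.406% of all probes did. Differences from control ran from -0.18 ± 0.36 (cnc) to 0.54 ± 0.39 (Cat) under XBP-1 RNAi, where the median of all probes was 0.22. They ran from -0.03 ± 0.36 (Trxr1) to 0.52 ± 0.44 (Jafrac2) for the IRE1 label, where the median was 0.03.

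Other genes of the same pathways were taken from a list of 56 genes in 7 groups, of which 37 had a row and 33 could be tested. The list was fixed with earlier results of these data known, so its counts are not an independent test. In control cells 9 of the 33 rose and 1 fell with DTT (7.25% and 4.45% of all probes), and the median of the list was 0.02 beside 0.15 over all probes. Of the 4 genes of glutathione synthesis and recycling, Cbs, which starts the path from homocysteine to cysteine, rose by 1.39 ± 0.41 (adjusted p 0.022, limma). Of 7 glutathione transferases outside the Delta and Epsilon classes, which the list left out, GstO1 rose by 1.74 ± 0.38 and GstT4 by 1.33 ± 0.34 (adjusted p 0.00173 and 0.00773, limma). Of 5 NADPH-producing enzymes, the malic enzyme Men rose by 2.04 ± 0.36 (adjusted p 0.000188). The metal-responsive transcription factor MTF-1 rose by 2.00 ± 0.38 (adjusted p 0.000413), and the transporter Mrp4 by 1.30 ± 0.34 (adjusted p 0.01), 1 of 4 partners and targets of Cnc and Keap1.

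Of 8 peroxidases and superoxide dismutases, 3 rose and 1 fell in control cells. Prx6b and Prx6c rose by 1.83 ± 0.40 and 1.81 ± 0.38 (adjusted p 0.00199 and 0.00137, limma); they are close copies of 1 peroxiredoxin gene, and their probes may read each other's transcripts. Gtpx, a glutathione peroxidase homologue, rose by 1.71 ± 0.40 (adjusted p 0.00361). Irc, an immune-regulated catalase, fell by 2.18 (SE 0.39, adjusted p 0.000265). None of the 3 thioredoxin enzymes tested, Trxr2, Txl and Grx5, passed (adjusted p 0.596 to 0.995, limma). The call of Cbs was lost without any 1 of 3 control arrays (adjusted p 0.0513 to 0.0991), that of GstT4 without control array B without DTT (adjusted p 0.0529) and that of Mrp4 without control array C without DTT (adjusted p 0.0668).

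The counts of the list differed by arm and by scaling, but they are counts of calls within each arm. As deposited, none of the 33 genes passed in any of the 3 differences between arms. Of all probes, 0.802% passed for XBP-1 RNAi against control, 0.0894% for the IRE1 label against control and 0% for the IRE1 label against XBP-1 RNAi. With each array centred on its median, 1 gene of the list had a positive difference for the IRE1 label against control, where 64 of 5594 probes passed. Under XBP-1 RNAi 3 of 33 rose (Men 1.56 ± 0.36, MTF-1 1.55 ± 0.38 and Mrp4 1.30 ± 0.34) and 6 fell, where 4.53% and 11.8% of all probes did. The 6 were Cth, which releases cysteine from cystathionine, the mitochondrial peroxiredoxin Prx3, the superoxide dismutases Sod1 and Sod2, Irc, and Pgd of the pentose phosphate path, with changes from -2.25 (Irc) to -1.17 (Cth). On the arrays labelled IRE1 RNAi 2 rose (Men 1.47 ± 0.36 and MTF-1 1.13 ± 0.38) and 8 fell, where 3.48% and 10.5% of all probes did. The 8 were the same 6 with Txl, a thioredoxin-like protein, and Grx5, a glutaredoxin, with changes from -1.89 (Prx3) to -0.96 (Grx5). List medians were -0.04 and -0.39, beside -0.08 and -0.24 over all probes. MTF-1 was lost on the arrays labelled IRE1 RNAi without any 1 of 4 of its 6 arrays (adjusted p 0.0843 to 0.136), and the fall of Irc there without array A without DTT (-1.08, adjusted p 0.13). With each array centred on its median, control cells had 9 rises and 5 falls, XBP-1 RNAi cells 8 rises and 9 falls, and the arrays labelled IRE1 RNAi 5 rises and 8 falls. Calls over all probes also grew with centring, to 1421 of 5935, 1758 of 5649 and 1321 of 5833 in the 3 arms. With the replicate block the count under XBP-1 RNAi went from 9 to 16, with Prx6b, Prx6c and Gtpx among the added rises (adjusted p 0.0349, 0.00967 and 0.0234, limma). Of all probes, 26.6% passed in that fit.

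**Figure D4:**
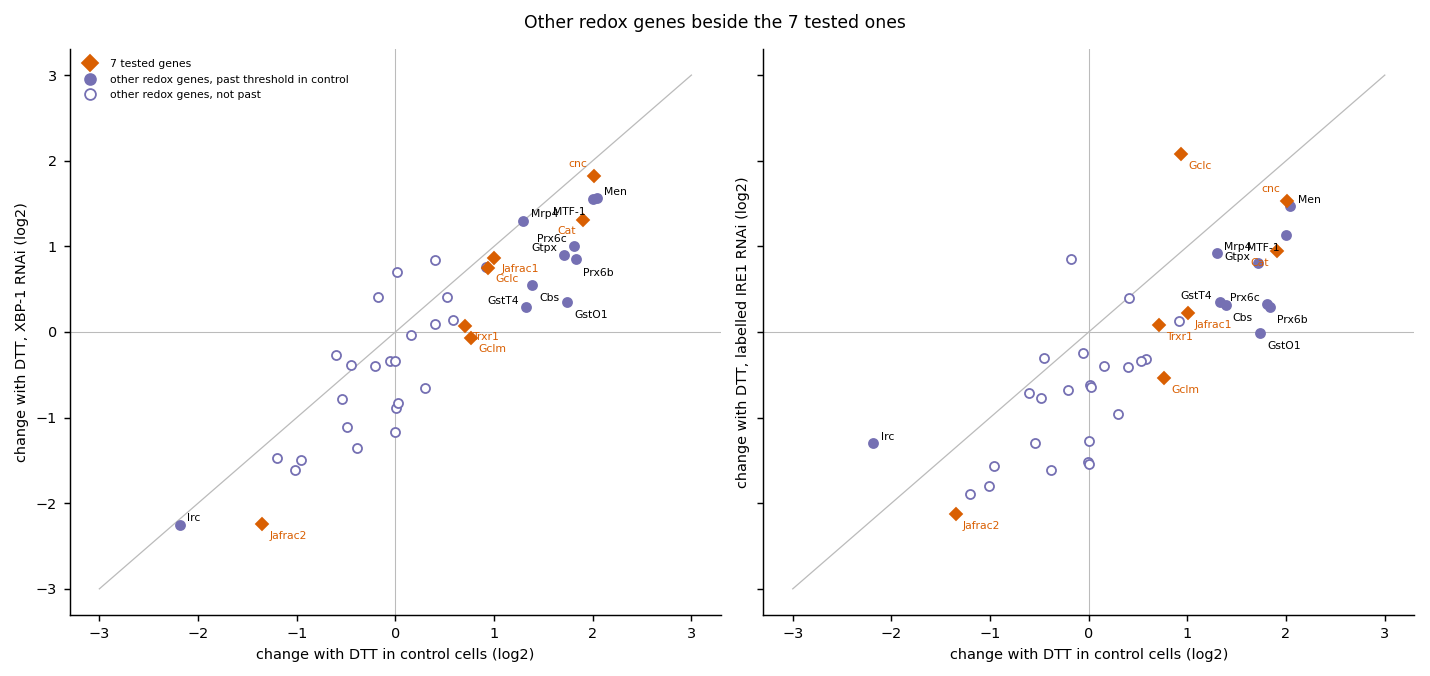
Change with DTT (log2) in control cells (horizontal axis) against the change under XBP-1 RNAi (left) and on the arrays labelled IRE1 RNAi (right) for the 7 tested genes (orange diamonds) and the other redox genes of the list (purple circles, filled and named where they passed in control cells); the grey line marks equal change. Gclc lies above the line on the right (0.94 against 2.07), while GstO1 lies near 0 there (1.74 against -0.01). None of the genes shown passed as a difference between arms with the values as deposited and no replicate block.

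For each gene that passed in at least 1 arm, the genes with the most similar group means were found among 5236 genes, by the root mean square difference over the 5 groups other than control without DTT, each taken relative to it. Among those near to cnc were RhoGEF3 (0.14) and Mekk1 (0.18). The nearest to Cat were Gadd45 (0.11), CAH3 (0.11) and NC2alpha (0.14), and the nearest to Jafrac2 were CG7920 (0.18), Sec61alpha (0.19), a subunit of the ER translocon, and msd5 (0.21). For Gclc, Cftr, an ABC transporter, stood at 0.13. Relative to control cells without DTT, Cftr stood at 0.72 in control cells with DTT, at 0.92 under XBP-1 RNAi with DTT and at 1.97 on the arrays labelled IRE1 RNAi with DTT. The next were CG2065 and CG14591 at 0.33 each. These are descriptions over 5 group means that share their arrays.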

How the data were processed

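Total RNA of S2 cells was measured on 18 two-colour spotted arrays. The authors used the NOMAD database for normalization, per the labels, and left out spots less than 1.5-fold above background, spots whose channels fitted a line with R2 under 0.5, and visible defects. The deposited values were taken as log2 ratios; the base and numerator are not given in the sources used here, and no scaling between arrays was added. Row numbers, taken as CG gene numbers, were looked up in RefSeq Release 6: 6942 by locus tag and 204 by synonym, while 101 matched several genes and 10 none. Scanner intensities were not used here, so precision is known only from the number of arrays and of removed spots.

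A model of 6 group means was fitted to each probe by lmFit and eBayes of limma 3.58.1 under R 4.3.3. A comparison required 2 or more values in every group it used, and p-values were adjusted over all probes tested (Benjamini-Hochberg, 2-sided, threshold 0.05). The 8 comparisons were the effect of DTT in each arm, the 3 differences of these effects, and each RNAi against control without DTT. The procedure was also run on simulated data, and the outcome of that run is not reported here. Groups and letters come from the sample titles. Arrays of the same letter with and without DTT deviated together in all 9 pairs (r 0.231 to 0.701 over 2737 probes measured on all arrays). Without DTT, arrays of the same letter also deviated together across arms. There r was 0.259 to 0.618 for control with XBP-1 RNAi and 0.241 to 0.691 for control with the IRE1 label. Arrays of unlike letters were not compared. The letter was therefore taken as a block over all arms, and what it stands for is not known. The calls given as main results nevertheless come from the fit without the letter, and the block is named where it was used. The block fit held the letter as a term; there limma estimated 1 common variance for all probes unless the arrays were also centred.

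Alternatives were array centring, quantile normalization, the replicate block, centring with the block, probes measured on all arrays, the arrays of each comparison alone, robust eBayes and leaving out each array. Added after the data were seen were at least 1 value per group and centring on the probes measured on all arrays, as well as all alternatives for the list of other redox genes. The members and lists were chosen with earlier results of these data known. Named were all members, the list genes past the threshold in control cells, the 3 most similar genes of each member that passed (1 of them is not reported here), and the Ire1, Xbp1 and Hsc70-3 probes; list genes past the threshold in the other arms alone were named after their values were seen. No sequences or coordinates were used here.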

Additional observations from a re-analysis of the deposited data

Results flagged for a closer look

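For the modifier subunit Gclm, which did not pass in any arm with the values as deposited, pairs with and without DTT differed in opposite directions in 2 arms. In pairs of the same letter its mean change was 0.767 in control cells, higher in 3 of 3 pairs, and -0.54 on the arrays labelled IRE1 RNAi, lower in 3 of 3. The difference itself was tested and did not pass (-1.31 ± 0.47, adjusted p 0.353, limma), and after array centring 1 of the 3 labelled pairs was higher. Its cause was not tested.

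The catalytic subunit Gclc had a larger effect of DTT on the arrays labelled IRE1 RNAi than in the other arms, by a test of the difference with array centring and the replicate block. The difference was 1.54 against control cells (adjusted p 0.00477, limma) and 1.42 against XBP-1 RNAi (adjusted p 0.0243). With the values as deposited and no block these differences did not pass (adjusted p 0.517 and 0.999, limma), nor with the replicate block alone (adjusted p 0.167 and 0.48). Neither passed with centring on the array median or quantile normalization alone. Centring on the probes measured on all arrays, without the block, passed the first (adjusted p 0.0358, limma). The Ire1 probe read higher on the arrays labelled IRE1 RNAi than on the others, for a reason that was not tested. The cause of the Gclc differences was not tested either.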

How the results depend on the processing

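The number of arrays, 3 a group, and removed spots limit these results, most of all for Keap1. Counts below run over the effect of DTT in control cells, under XBP-1 RNAi and on the arrays labelled IRE1 RNAi, then the differences XBP-1 RNAi minus control, IRE1 label minus control and IRE1 label minus XBP-1 RNAi. As reported, 694, 921, 813, 44, 5 and 0 probes passed, of 5935, 5649, 5833, 5483, 5594 and 5417 tested. With each array centred on its median, 1421, 1758, 1321, 82, 64 and 8 passed, and with quantile normalization 1696, 1566, 1278, 107, 85 and 11. With the replicate block, which holds the letter over all arms, 1164, 1504, 1307, 196, 153 and 13 passed, and 2 and 1 for XBP-1 RNAi and the IRE1 label without DTT. Centring and the replicate block together gave 2009, 2545, 1874, 392, 272 and 47. Centring on the probes measured on all arrays gave 1437, 1902, 1299, 77, 63 and 8. Only probes measured on all arrays left 17 for the IRE1 label minus control; only the arrays of the comparison gave 81 for XBP-1 RNAi minus control, 0 for the IRE1 label minus control and 2 for XBP-1 RNAi without DTT. Leaving out 1 array gave 467 to 722, 526 to 949, 476 to 756, 0 to 94, 0 to 27 and 0 to 1, and 0 to 1 for the IRE1 label without DTT. The 526 came without the DTT-treated replicate C in the XBP-1 arm. In the arm labelled IRE1 RNAi, 476 passed without the DTT-treated replicate C and 512 without the untreated replicate A. For XBP-1 RNAi minus control, the count of 44 moved by over 1.5 times without any array except both B arrays under XBP-1 RNAi, rising to 84 without untreated control A and 94 without DTT-treated control B and falling to between 0 and 26 otherwise. For the IRE1 label minus control, the count of 5 rose to 27 without untreated control A and to 19 and 8 without the labelled C arrays with and without DTT, fell to between 0 and 3 without either of the other C arrays or the remaining labelled arrays, and moved less without control B arrays or DTT-treated control A. Centring moved the share of rises among the calls from 62.0% to 49.5%, from 27.8% to 46.9% and from 25.0% to 39.3% in the 3 arms.

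Of the 7 genes, 3 passed in each arm as reported. With quantile normalization 5 and 5 passed in control cells and under XBP-1 RNAi, where 1696 of 5935 and 1566 of 5649 probes passed. With centring, on either median, 5 passed under XBP-1 RNAi, where 1758 and 1902 of 5649 probes passed. The replicate block gave 5 in control cells, where 19.6% of all probes passed. With centring the block gave 7 in control cells and 5 under XBP-1 RNAi, where 33.9% and 45.1% of all probes passed. It then gave 1 each for the IRE1 label minus control and minus XBP-1 RNAi, which was Gclc, where 4.86% and 0.868% passed. Gclc was also the 1 gene of the 7 past the threshold for the IRE1 label minus control with centring on the probes measured on all arrays. There 63 of 5594 probes passed. The replicate block alone changed no call of the 7 genes beyond those given in the report. The other redox genes went from 9 under XBP-1 RNAi to 17 with centring, 18 with centring on the probes measured on all arrays and 15 with quantile normalization. They went to 22 with centring and the block, and to 4 without replicate C with DTT. The calls over all probes went from 921 to 1758, 1902, 1566, 2545 and 526 in the same settings. For the IRE1 label with centring and the block, the other redox genes went from 10 to 18 and all probes from 813 to 1874. Over single genes and the list counts, 1509 values under alternatives were compared with those reported. Of these, 64 gained a call, 16 lost it, 7 counts moved and 0 called changes reversed. The other 1422 were classed as the same, which for single genes means the same side of the threshold. Changes without a call could still switch sign: Gclm under XBP-1 RNAi went from -0.07 to 0.11 with centring and the block. List counts classed as the same could also differ. In control cells the list went from 9 rises and 1 fall to 9 rises and 5 falls with centring. The causes were not tested.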
